A study of Mus musculus with 12 samples.

Results

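The later fallers are 571 of the 41999 probes in the authors' value table whose eyelid signal fell from E14.5 to E16.5 (E, embryonic day) and was still falling after E15.5. They were selected on the measured values themselves. For each probe the 4 arrays of a stage, both genotypes together, were averaged in the authors' log10 values. The E16.5 mean had to lie at least 0.301 below the E14.5 mean on the log10 scale, which is 2-fold. The share of that fall already reached at E15.5, called progress here, had to be under 0.65. The probe also had to be well above background in the eyelid channel on all 4 E14.5 arrays. Of 1132 probes that fell that far, 728 met the background criterion and 571 of those had progress under the limit. The other 157 had progress of 0.65 or more and are called early fallers below. The fall and its timing are therefore given as a description, with no test, and only the comparisons between genotypes were tested.

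The samples are whole mouse eyelids, strain label C57BL6/J, from embryos of either genotype, with 2 arrays in each of 6 groups. The groups are wild-type E14.5, wild-type E15.5, wild-type E16.5, Tabby E14.5, Tabby E15.5 and Tabby E16.5, and no agent was given to any of them as far as the sample labels say. Tabby is a mutation carried in the germ line, so no promoter or Cre limits it to a cell type. Eyelid RNA carried Cy3 and a common reference, made of pooled mouse cell line RNA and embryonic stem cell RNA, carried Cy5 on every array. The labels call the 2 arrays of a group biological replicates without saying whether animals were pooled, so p-values measure the spread between these samples. The treatment text in the labels speaks of footpad skin, while the tissue labels give eyelids. The tables used here tie none of the probes to a gene, so the tissue label could not be checked against marker genes and members are described by probe name, sequence and values.

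Tabby disrupts Eda, the gene for ectodysplasin, a ligand of the tumour necrosis factor family. Ectodysplasin binds the receptor Edar on epithelial cells and activates NF-kB, and it is needed for hair, teeth, sweat glands and the Meibomian glands of the eyelid rim. Over the stages sampled the eyelid folds grow across the cornea and their epithelia meet and fuse, while surface epithelium, dermis, muscle and nerve all mature. A transcript can fall in whole eyelid because cells shut the gene down or because the cells that express it become a smaller share of the tissue. In bulk RNA, fewer cells of a type and less RNA per cell cannot be told apart.

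Each probe is a 60-base sequence that captures 1 transcript region. The 6 probes with the deepest fall are shown first, because their values in every sample are given below, and they carry no capitals.
Z00025972-1: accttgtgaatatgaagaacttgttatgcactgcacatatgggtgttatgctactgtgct
Z00041381-1: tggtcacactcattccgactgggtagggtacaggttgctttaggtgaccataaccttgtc
Z00040042-1: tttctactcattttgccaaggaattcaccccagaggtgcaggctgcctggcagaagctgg
Z00016251-1: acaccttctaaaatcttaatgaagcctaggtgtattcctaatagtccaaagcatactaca
Z00047077-1: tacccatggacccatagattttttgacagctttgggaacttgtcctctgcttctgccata
Z00028324-1: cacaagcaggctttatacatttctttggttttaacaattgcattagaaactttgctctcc
The next 2 had the latest fall of all members, with an E15.5 mean slightly above the E14.5 mean.
Z00047470-1: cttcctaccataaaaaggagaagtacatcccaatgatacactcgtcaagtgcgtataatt
Z00022656-1: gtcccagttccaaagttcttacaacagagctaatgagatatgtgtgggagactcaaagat
The last 4 form 2 overlapping pairs, shown because the 2 probes of a pair carry a common stretch of sequence on separate spots. Capitals mark the run of bases that the 2 probes of a pair share.
Z00072949-1: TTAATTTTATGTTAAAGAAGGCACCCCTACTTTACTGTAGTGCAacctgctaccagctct
Z00073695-1: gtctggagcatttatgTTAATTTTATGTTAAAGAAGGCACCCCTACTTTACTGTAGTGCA
Z00047026-1: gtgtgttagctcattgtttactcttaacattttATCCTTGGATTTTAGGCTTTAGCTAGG
Z00076133-1: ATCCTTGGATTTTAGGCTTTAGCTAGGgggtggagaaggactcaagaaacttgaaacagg

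All levels and falls below are the authors' values turned to log2, unless loess ratios are named. A higher value means more eyelid signal after correction for the reference channel's deviation from its mean. The median later faller dropped by 1.27 on the log2 scale from E14.5 to E16.5, which is 2.41-fold, and the quartiles of the fall were -1.63 and -1.11. The median over all 41999 probes was -0.08. Most falls were shallow: 70 members fell at least 4-fold, and 13 of these at least 8-fold. The deepest fell by 5.75 on the log2 scale. Members crowded at the limit: Z00031080-1 lay just inside it at -1.0004, and Z00071758-1 lay just outside at -0.9994.

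The decline was spread over both days. Median progress at E15.5 was 0.48, with quartiles of 0.38 and 0.55. The median step was -0.60 from E14.5 to E15.5 and -0.70 from E15.5 to E16.5, and in 331 members (58.0%) the later step was the larger one. Progress was 0.5 or more in 240 members, from 0.25 to under 0.5 in 276, from 0 to under 0.25 in 53 and below 0 in 2. The median fall in these classes was -1.27, -1.28, -1.24 and -1.09. Every class was cut at the same limit on the fall and the last holds 2 members, so these medians cannot show whether depth went with timing. The early fallers, by their definition, made most of their descent on the first day, with median steps of -1.06 and then -0.33. Under the same limit on the fall, their median fall was -1.35. The limit cuts through a continuous range: Z00036119-1 lay just inside at a progress of 0.649 and Z00057230-1 just outside at 0.651.

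**Figure D1:**
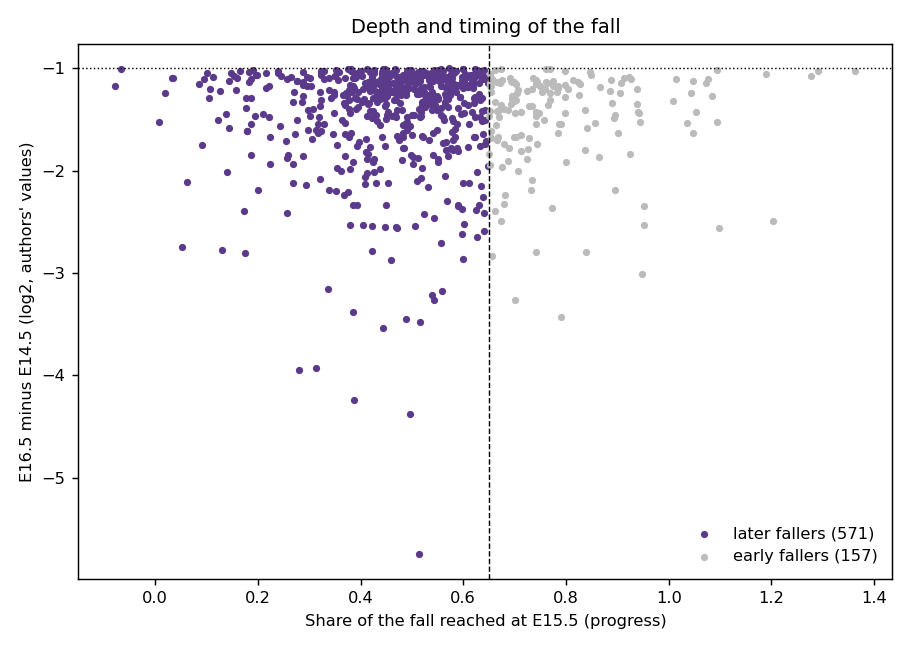
Each point is 1 probe, with progress (the share of the fall reached at E15.5, no unit) on the x axis and the fall from E14.5 to E16.5 in log2 units on the y axis. The 571 later fallers (purple) lie left of the dashed limit of 0.65 and the 157 early fallers (grey) right of it, and both sets crowd just under the dotted limit on the fall, with a few members reaching down to -5.75.

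The 12 arrays did not agree equally well on the later fallers. At E14.5 the median member lay between -0.03 and 0.02 of its own E14.5 mean on every array. At E15.5 the median change from that mean was -0.61 and -0.67 on the wild-type arrays, replicates 1 and 2, and -0.72 and -0.47 on the Tabby arrays. At E16.5 it was -1.37 and -1.36 on the wild-type arrays and -1.32 and -1.17 on the Tabby arrays. Replicate 2 of Tabby therefore sat above the other 3 arrays at both later stages.

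Within each later stage, 1 array was the highest for many members. Tabby E15.5 replicate 2 gave the highest of the 4 E15.5 values in 45.9% of members, against 27.1% of all probes, and Tabby E16.5 replicate 2 gave the highest E16.5 value in 52.9% of members, against 29.5% of all probes. Median progress computed from a single E15.5 array was 0.45 and 0.52 for the wild-type arrays and 0.57 and 0.37 for the Tabby arrays, so the Tabby replicates enclosed both wild-type ones. Replicates were also farther apart in members: the median absolute difference between the 2 arrays of a group ran from 0.14 to 0.32 in members and from 0.10 to 0.18 over all probes. When Tabby E16.5 replicate 2 was left out, the rule gave 687 probes, 543 of them among the 571, and without Tabby E15.5 replicate 2 it gave 513, of which 504 were among the 571.

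**Figure D2:**
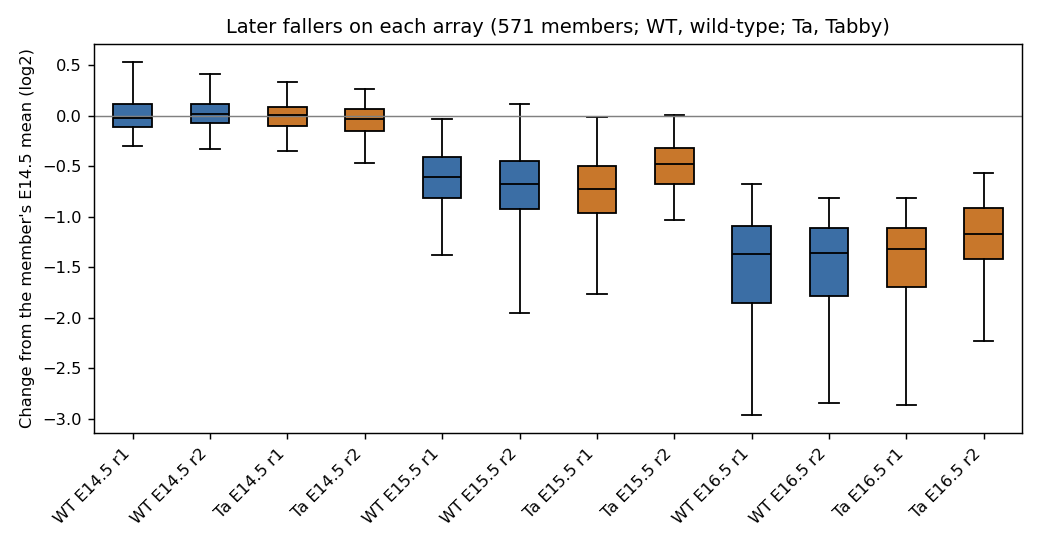
Boxes show, for each of the 12 arrays, the change of the 571 later fallers from their own E14.5 mean in log2 units of the authors' values; the line is the median, the box the quartiles and the whiskers the outer percentiles (5 and 95). Blue is wild-type (WT) and orange is Tabby (Ta). Medians step down at each stage to between -1.17 and -1.37 at E16.5, and the second Tabby replicate is the highest of its stage at E15.5 and E16.5.

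Z00040042-1 fell at each step in both genotypes, with no overlap between stages. Its wild-type levels were 11.55 and 11.80 at E14.5, 10.11 and 9.91 at E15.5, then 7.41 and 7.01 at E16.5. Its Tabby levels were 11.54 and 11.41, then 9.40 and 10.32, then 7.12 and 7.78. The genotypes overlapped at both later stages, and the fall was -4.46 in wild-type and -4.02 in Tabby. All 12 arrays read it well above background.

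Z00047077-1 was the brightest of the 6. Its wild-type levels were 15.27 and 15.41 at E14.5, 14.31 and 14.21 at E15.5, then 11.44 and 11.48 at E16.5. In Tabby they were 15.25 and 14.98, then 13.27 and 14.21, then 11.27 and 11.00. Most of its decline came on the second day, with progress of 0.28 in wild-type and 0.35 in Tabby, and its fall of -3.88 and -3.98 differed between genotypes by less than the Tabby E15.5 replicates differed from each other.

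Z00025972-1 showed the deepest fall and one of the widest spreads between replicates. Its wild-type levels were 9.95 and 9.63 at E14.5, 8.50 and 2.47 at E15.5, then 2.22 and 2.59 at E16.5. In Tabby they were 9.47 and 9.81, then 6.91 and 9.19, then 2.80 and 8.25. One wild-type array was thus as low at E15.5 in these values as both were at E16.5, while 1 Tabby array was still high at E16.5. All 4 E15.5 arrays, the low one included, were nonetheless well above background. Both wild-type E16.5 arrays and Tabby E16.5 replicate 1 were not well above background, so the fold has a lower limit only: in wild-type it was at least 7.21-fold lower at E16.5. Lower limits here and below were computed with an offset of 50 added to the signal, which makes them smaller.

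A pair of further deep fallers was similarly uneven in the authors' values. Z00016251-1 read 8.58 and 9.07 in wild-type at E14.5, 10.06 and 3.83 at E15.5, then 3.61 and 4.37 at E16.5. Its Tabby levels were 8.96 and 8.88, then 8.56 and 8.60, then 5.06 and 6.64. Z00041381-1 read 8.52 and 7.68 in wild-type at E14.5, 6.80 and 3.76 at E15.5, then 3.57 and 2.43 at E16.5, and its Tabby levels were 7.88 and 7.92, then 5.19 and 7.56, then 2.79 and 5.69. In both, wild-type E15.5 replicate 2 was the lowest array of its stage and Tabby E16.5 replicate 2 the highest. That E15.5 array was still well above background for Z00016251-1, but not for Z00041381-1. In loess ratios the gap of Z00016251-1 at E15.5 was much smaller, with 1.12 and 0.45 in wild-type, both below every E14.5 array, and its progress was 0.66 instead of 0.28. Loess progress was also over the limit of 0.65 in Z00025972-1 (0.715), Z00041381-1 (0.651) and Z00028324-1 (0.815). It was under the limit in Z00040042-1 (0.561) and Z00047077-1 (0.388). The fall of Z00025972-1 was -2.59 in loess ratios, against -5.75 in the authors' values. Against the same background limit the wild-type levels of Z00016251-1 and Z00041381-1 at E16.5 were at least 8.08-fold and at least 3.11-fold lower than at E14.5.

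That pairing of 1 low and 1 high array was looked for over all probes after it had been seen in these 3. In 8 members wild-type E15.5 replicate 2 lay at least 2-fold below the other 3 E15.5 arrays and Tabby E16.5 replicate 2 at least 2-fold above the other 3 E16.5 arrays, whereas 15 of all 41999 probes met both conditions. The 8 include 3 of the 4 deepest fallers, together with Z00024499-1 and Z00030823-1, whose falls were -3.45 and -3.21. Taken singly, 11 members met the condition at E15.5 (1.93%, against 0.479% of all probes) and 18 that at E16.5 (3.15%, against 0.614%). Of the 157 early fallers, 4 met the condition at E15.5 and 6 that at E16.5, so neither was particular to the later fallers. Each wild-type E16.5 array also lay at least 2-fold below the other 3 in 14 members (2.45%), against 0.598% and 0.698% of all probes. Wild-type E15.5 replicate 2 also lay at least 2-fold above the other 3 arrays in 11 members. In loess ratios, too, wild-type E15.5 replicate 2 was the lowest E15.5 array and Tabby E16.5 replicate 2 the highest E16.5 array in all 8. The cause was not tested.

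Z00028324-1, the sixth deepest, was dim throughout. Its wild-type levels were 6.12 and 4.67 at E14.5, 4.56 and 4.04 at E15.5, then 2.05 and 2.42 at E16.5. Its Tabby levels were 6.18 and 6.44, then 3.48 and 5.05, then 1.99 and 2.80. None of the 4 E16.5 arrays was well above background, and its fall of -3.53 had a lower limit of only 1.40-fold.

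The 4 members with the latest fall held their level through E15.5 in the authors' values, but not in loess ratios. There their progress was 0.58 for Z00047470-1, 0.48 for Z00022656-1, 0.37 for Z00029149-1 and 0.56 for Z00063570-1, and their falls were -0.17, -0.35, -0.22 and -1.88. Z00047470-1 read 5.17 and 5.93 in wild-type and 5.37 and 5.41 in Tabby at E14.5. At E15.5 it read 6.07 and 5.91 in wild-type and 5.09 and 5.17 in Tabby, and at E16.5 4.01 and 4.24 in wild-type and 4.60 and 4.34 in Tabby. The E16.5 values lay below all others, but both wild-type ones were not well above background, so the wild-type fall has a lower limit only, of 1.0998-fold. Its progress as the rule computed it was -0.08.

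Z00022656-1 had a progress of -0.07. It read 4.86 and 5.67 in wild-type and 5.51 and 5.62 in Tabby at E14.5, 5.52 and 5.89 in wild-type and 4.96 and 5.54 in Tabby at E15.5, then 4.74 and 4.54 in wild-type and 4.63 and 3.70 in Tabby at E16.5. The E14.5 and E15.5 ranges overlapped almost fully. At E16.5 it was not well above background on 3 of 4 arrays, and in wild-type it was at least 1.27-fold lower than at E14.5.

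Z00029149-1 had a progress of 0.01 and was well above background on all 12 arrays. It read 6.46 and 6.03 in wild-type and 5.46 and 5.70 in Tabby at E14.5, 5.70 and 6.45 in wild-type and 5.80 and 5.65 in Tabby at E15.5, then 5.12 and 3.26 in wild-type and 4.50 and 4.67 in Tabby at E16.5. Every E16.5 value was lower than every earlier one. Z00063570-1 had a progress of 0.02. It read 8.13 and 8.19 in wild-type and 8.40 and 8.41 in Tabby at E14.5, 8.64 and 8.05 in wild-type and 8.19 and 8.16 in Tabby at E15.5, then 6.15 and 7.25 in wild-type and 6.98 and 7.80 in Tabby at E16.5. Its E16.5 arrays spread over more than its earlier ones.

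**Figure D3:**
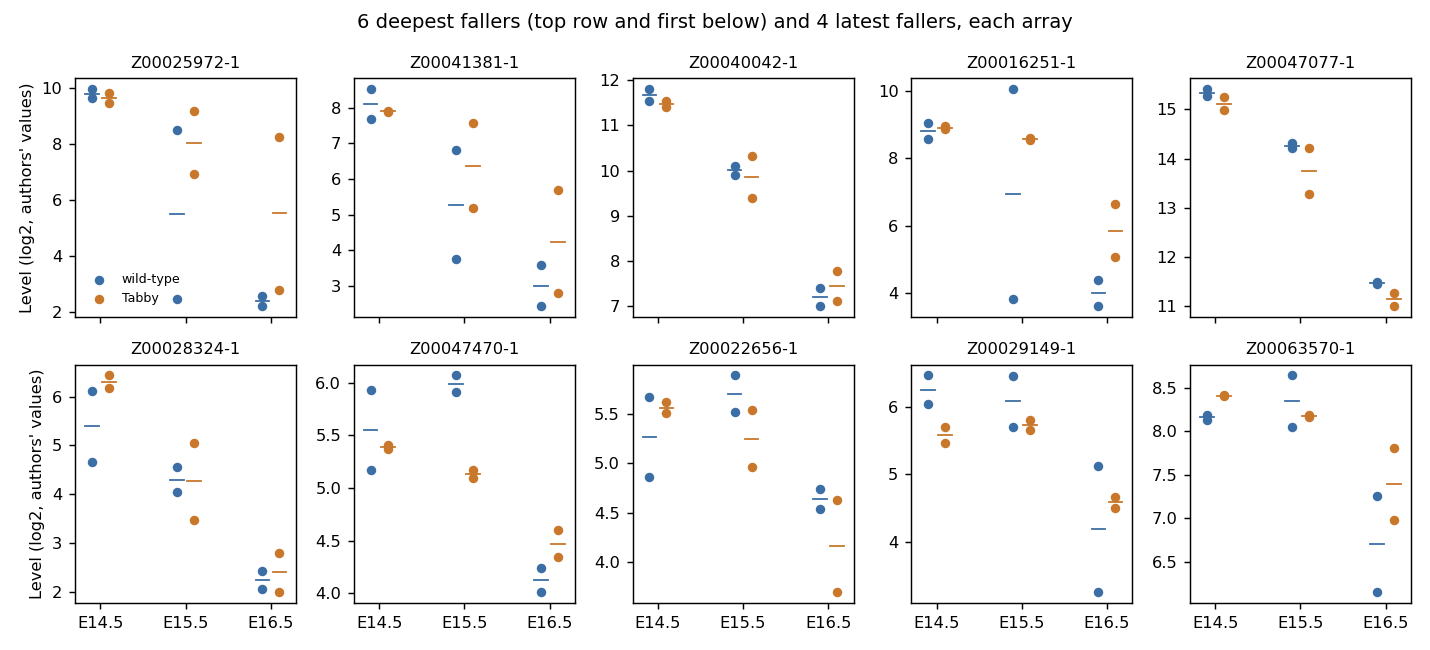
Panels plot the level (log2, authors' values) of the 6 deepest and the 4 latest later fallers on every array, with wild-type in blue, Tabby in orange and a short bar at the mean of the 2 arrays of a group. Z00040042-1 and Z00047077-1 fall at each step in both genotypes, Z00025972-1 spans 2.47 to 9.19 at E15.5, and in these values the latest fallers drop after E15.5. The y axes differ between panels and do not start at 0.

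The fall lay in the eyelid channel. The median eyelid signal of the members, as processed by the scanner software, changed by -0.60 by E15.5 and by -1.32 by E16.5 on the log2 scale, and 570 of 571 were lower at E16.5. The reference channel of the same probes, which holds the same RNA on every array, changed by 0.03 and -0.02. Each slide carried the 4 arrays of 1 stage, so slide and stage cannot be told apart.

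Many members ended near the background. All 571 were well above background on the 4 E14.5 arrays by the rule, 482 were so on all 4 E15.5 arrays and 428 on all 4 E16.5 arrays. At E16.5, 51 members were above background on none of the 4 arrays, so their falls have lower limits only. Those limits had a median of 1.13-fold and a highest value of 2.10-fold, and 1 of the 51 was at least 2-fold. The added offset of 50 shrinks them most for dim spots such as these, so they are not set by the background alone.

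The size of the fall depended strongly on how dim spots were treated. In loess-normalised log2 ratios of eyelid over reference, with an offset of 50 added after background correction, all 571 members were still lower at E16.5, but the median fall was -0.83 and 197 of 571 fell at least 2-fold. Median progress rose from 0.48 to 0.56, and 149 of the 571 met both limits of the rule. Applied afresh to the loess ratios, the rule gave 158 probes. Processed signals followed by loess kept 482 of 571 past the limit on the fall, and median centring of the ratios kept 208.

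The gap between both scales went with brightness. Among the dimmest 142 members, with a mean eyelid signal from 11.4 to 54.2, the median fall was -1.34 in the authors' values and -0.26 in the loess ratios. Among the brightest 143, with a mean signal of 802 or more, it was -1.25 and -1.13, and 107 of these 143 fell at least 2-fold in the loess ratios. For the brightest of the deep fallers the loess fall was as large or larger: -4.24 for Z00040042-1 and -5.18 for Z00047077-1, against -0.55 for the dim Z00028324-1.

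**Figure D4:**
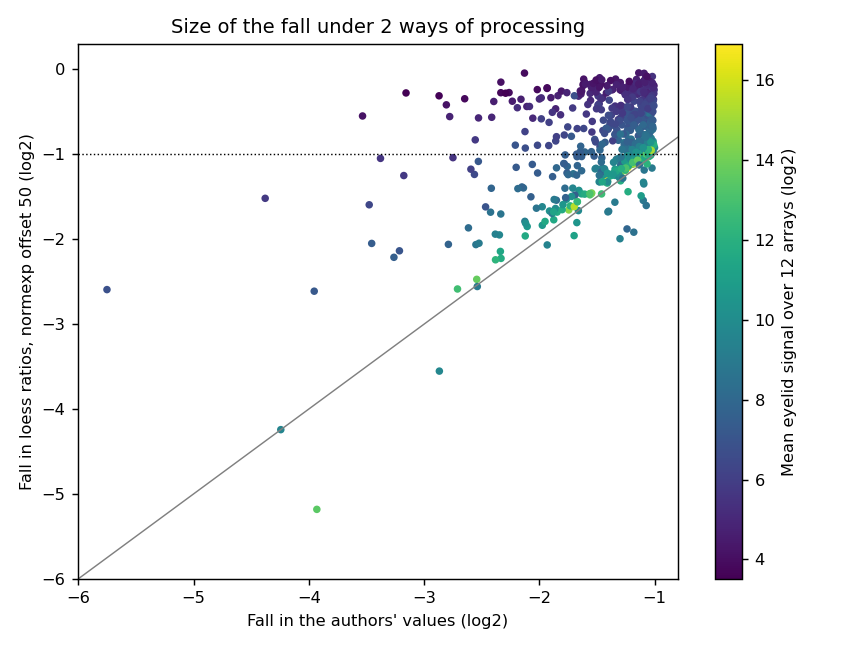
Each of the 571 points is a later faller, with its fall in the authors' values on the x axis and in loess ratios with offset 50 on the y axis (both log2), coloured by its mean eyelid signal over 12 arrays (log2). Bright probes lie near the grey line of equality, while the dimmest lie close to 0 on the y axis; the dotted line marks a 2-fold fall, which 197 members pass in the loess ratios.

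Whether the decline depends on Eda was asked by comparing Tabby with wild-type eyelids, on loess ratios with limma's moderated test and Benjamini-Hochberg adjustment over all 32981 probes tested, 571 of which were the members. This comparison was not used to choose them. No later faller passed an adjusted p of 0.05 at any stage, averaged over the stages, or for the difference of the fall between genotypes. Averaged over the 3 stages, 0 of 571 members were called against 0.0303% of all probes, and 53 had an unadjusted p under 0.05 (9.28%) against 5.86% of all probes. The smallest adjusted p of a member was 0.219 there and 0.123 at E16.5.

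Taken stage by stage, no member was called either. In these loess ratios the members' share with an unadjusted p under 0.05 stood clearly above that of all probes only at E15.5. At E14.5, 0 members were called, as were 0% of all probes, and 15 had an unadjusted p under 0.05 against a background of 2.4%. At E15.5, 0 members and 0% of all probes were called, and 55 had an unadjusted p under 0.05 (9.63%) against 6.7%, of which 37 were higher and 18 lower in Tabby. At E16.5, 0 members were called against 0.0819% of all probes, and 21 had an unadjusted p under 0.05 (3.68%) against 3.97%. For the difference of the fall from E14.5 to E16.5, 0 members were called against 0.00606%, with 9 at an unadjusted p under 0.05 (1.58%) against 2.36%. For the step from E15.5 to E16.5, 0 members and 0% of all probes were called, with 19 (3.33%) against 5.28%. The precision behind these counts was limited: the median standard error of a member's difference within a stage was 0.13, against 0.08 over all probes.

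In loess ratios, a small shift towards higher Tabby values at each later stage did not outlast the removal of that stage's Tabby replicate 2. The median member difference, Tabby minus wild-type in loess ratios, was -0.01 at E14.5 and 0.05 at both later stages, and 46.4%, 65.1% and 63.4% of members were above 0, against 53.4%, 53.4% and 50.6% of all probes. Without Tabby E15.5 replicate 2 the E15.5 median was -0.03, and without Tabby E16.5 replicate 2 the E16.5 median was -0.02. In the authors' values the shift at E16.5 was 0.14, and it was not recomputed there with arrays left out. An unadjusted p under 0.05 was reached by 71 of 571 members, a larger share than the 6.39% of all probes, again with 0 called after adjustment. For the difference of the fall it was 23 of 571, close to the 3.95% of all probes. The E16.5 shift was 0.12 with processed signals followed by loess and 0.14 in Feature Extraction's log ratio, each against 0.01 over all probes. That log ratio gave nearly the same differences as the authors' values, so it is no separate check on them. With median centring the members' shift was 0.04, no larger than the 0.05 over all probes. In the eyelid channel alone it was 0.03, against 0.01 over all probes. The fall itself was -1.39 in wild-type and -1.22 in Tabby at the median, and 391 of 571 members (68.5%) fell less in Tabby, where 51.7% of all probes had the higher change in Tabby. Array position on the slide goes with genotype on every slide, so the 2 cannot be told apart.

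Complete separation of the genotypes at E15.5 was seen in a minority of members. Both Tabby arrays were higher than both wild-type arrays in 79 members (13.8%, against 19.3% of all probes) and lower in 48 (8.41%, against 14.3%). At E14.5 these counts were 84 (against 20%) and 96 (against 15.9%), and at E16.5 they were 101 (against 14.3%) and 65 (against 14.4%). Of the 157 early fallers 0 were called in any of the 6 comparisons, with between 2 and 8 at an unadjusted p under 0.05.

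**Figure D5:**
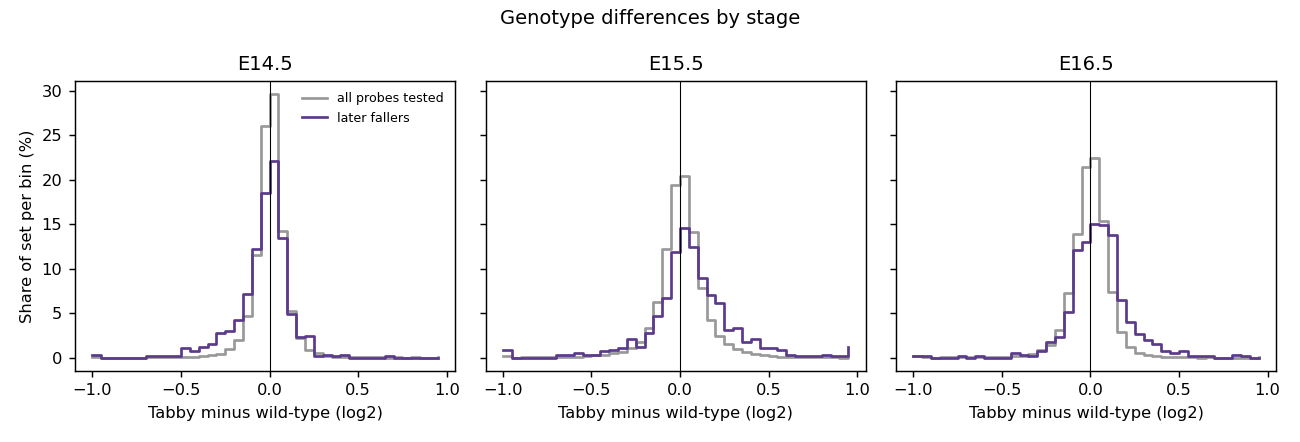
Step lines give the share of the 571 later fallers (purple) and of all 32981 probes tested (grey) in each bin of the Tabby minus wild-type difference (log2, loess ratios; values beyond 1 either way are counted in the end bins). The members spread wider than all probes at every stage, and their medians of -0.01, 0.05 and 0.05 stay close to 0.

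The 6 members named for the smallest p stood nearest to a genotype difference, and none of them passed. Z00026161-1 was higher in Tabby at each stage: its loess ratios were 0.24 and 0.17 in wild-type against 0.46 and 0.58 in Tabby at E14.5, -0.47 and -0.41 against -0.15 and -0.24 at E15.5, then -1.66 and -1.43 against -1.26 and -1.01 at E16.5. The genotypes did not overlap at any stage, and the mean difference was 0.33 (SE 0.06, limma adjusted p = 0.219). Its fall differed between the genotypes by 0.09 (SE 0.14).

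Z00056525-1 had the next smallest p averaged over stages. Its loess ratios were 0.86 and 0.91 in wild-type against 1.13 and 1.20 in Tabby at E14.5, 0.36 and 0.45 against 0.66 and 0.82 at E15.5, then -0.02 and -0.21 against 0.01 and 0.09 at E16.5. Tabby was the higher at every stage, by 0.26 on average (SE 0.05, limma adjusted p = 0.231).

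Z00005303-1 went the other way and was the member with the smallest p for the fall. Its loess ratios were 2.49 and 2.44 in wild-type against 2.20 and 2.36 in Tabby at E14.5, 2.01 and 1.84 against 1.28 and 1.82 at E15.5, then 1.92 and 1.79 against 0.75 and 1.00 at E16.5. The gap in Tabby widened to -0.98 at E16.5 (SE 0.16, limma adjusted p = 0.123). The fall was deeper in Tabby by -0.79 (SE 0.23), with an unadjusted p of 0.00793 from limma and an adjusted p of 1.

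Z00073598-1 also fell more in Tabby, by -0.49 (SE 0.16, adjusted p = 1 by limma). Its loess ratios were -0.50 and -0.82 in wild-type against -0.35 and -0.15 in Tabby at E14.5, -0.57 and -0.61 against -0.13 and -0.24 at E15.5, then -1.07 and -1.07 against -1.22 and -1.07 at E16.5. Tabby was higher at both earlier stages and the groups met at E16.5.

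The last 2 differed at E15.5 and met again at E16.5. Z00031324-1 read 0.56 and 0.64 in wild-type against 0.54 and 0.84 in Tabby at E14.5, -0.11 and -0.28 against 0.51 and 0.46 at E15.5, then -0.33 and -0.48 against -0.50 and -0.20 at E16.5, so its later step differed by -0.63 (SE 0.18, limma adjusted p = 0.916). Z00074752-1 read -2.30 and -2.02 against -2.21 and -2.55 at E14.5, -2.33 and -1.63 against -3.15 and -2.92 at E15.5, then -2.93 and -3.18 against -3.03 and -3.00 at E16.5, and its later step differed by 1.097 (SE 0.31, limma adjusted p = 0.916). In the first the wild-type eyelids had dropped by E15.5 and in the second the Tabby eyelids had.

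The counts at E15.5 changed when wild-type E15.5 replicate 2 was left out. Without it, and with the lone wild-type array assumed to vary like the other groups, 50 members were called at E15.5 (29 higher and 21 lower in Tabby), which is 8.76% against 6.85% of all probes. The same omission gave 15 members averaged over stages (2.63%, against 2.2% of all probes) and 11 for the later step (1.93%, against 2.73%), so the members' shares lay near those of the whole array. Z00026161-1 and Z00056525-1 then passed, with adjusted p-values of 0.0393 and 0.0362 by limma.

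Overlapping probes offered a second look at shared sequence within the same samples, although a shared run does not show that both probes measure 1 transcript. Of the 571, 30 shared a run of at least 20 bases with another probe of the array. They formed 11 pairs in which both were members, and within these pairs the fall differed by a median of 0.14 and progress by a median of 0.04. Both probes of such a pair had passed the rule, so part of this closeness was set by the selection. The pair of identical probes, Z00025860-1 and Z00062305-1, had falls of -1.05 and -1.13 with progress of 0.55 and 0.54. Timing was less alike in Z00026222-1 and Z00050906-1, which shared 20 bases and had progress of 0.64 and 0.32.

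The first pair printed above, Z00072949-1 and Z00073695-1, shared 44 bases, and the falls were -3.26 and -3.48 with progress of 0.54 and 0.52. In loess ratios these falls were farther apart and in the reverse order, at -2.21 and -1.59. The second, Z00047026-1 and Z00076133-1, shared 27 bases, with falls of -2.40 and -1.89 and progress of 0.17 and 0.41. Z00047026-1 was well above background on no E16.5 array (at least 1.25-fold lower), so these falls cannot be ranked, and in loess ratios they were -0.38 and -0.50. The widest gap in depth within a pair was 0.81, between Z00027115-1 and Z00030897-1.

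Another 12 probes outside the set overlapped a member, and all 12 were lower at E16.5 than at E14.5, by a median of -0.67. Of these, 3 fell past the limit of the rule. The early faller Z00049101-1 shared 58 bases with the member Z00054196-1 and had a fall of -2.32 against -2.52, with progress of 0.68 against 0.60. Probes of nearly the same sequence thus stood on both sides of the limit. Z00023889-1 shared 24 bases with the member Z00030527-1 and fell by -2.22 against -2.16, but with progress of 1.15 against 0.53. It was well above background on only 2 E14.5 arrays. In contrast, the 5 probes that overlapped the member Z00030505-1 had falls between -0.21 and -0.13, against -1.15 for the member itself.

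The sequences of the members were close in composition to those of the array. Median GC content was 41.7% against 43.3% for all probes. The motif AATAAA, the signal for polyadenylation, was present in 45 members (7.88%) against 6.93% of all probes, and its reverse complement in 3.33% against 3.36%. The motif ATTTA, the core of AU-rich elements, was present in 59 members (10.3%) against 7.25% of all probes, but its reverse complement was also more frequent, in 10.7% against 8.05%. A reading frame without a stop codon ran through 77.2% of member probes and 83.4% of all probes.

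All 60 bases of 3 members (0.525%, against 0.636% of all probes) were found in the RefSeq promoter windows of GRCm38.p6, which run from 250 bases before a gene's start to 50 after it. Z00063366-1 matched chr7:31042514-31042573, on the strand of Fxyd5, which encodes a regulator of the sodium-potassium pump, and upstream of its start, and fell by 1.17 on the log2 scale. Z00066627-1 matched chr11:77982645-77982704, on the strand opposite to Phf12, which encodes a PHD finger protein of a histone deacetylase complex; it was well above background on no E16.5 array, and its fall was at least 1.05-fold. Z00029486-1 matched chr13:70655908-70655967, opposite to the long non-coding RNA gene Gm36377, and fell by 1.32. A match gives a place in the genome and does not name the transcript measured.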

How the data were processed

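The authors deposited, per the file headers, spot intensity in both channels from Agilent Feature Extraction 9.5.1.1 and, in a separate value table, log10 values of the same arrays for which no source used here states scale or centring. By comparison with the scanner files, each column of that table rose with log10 eyelid signal corrected for the reference channel's deviation from its mean, and column medians lay between 2.33 and 2.35. The members and lists were chosen with earlier results of these data known. They were selected on the authors' values, which were multiplied to log2.

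For genotype comparisons, intensities were background-corrected (normexp, offset 50) and loess-normalised within arrays in limma 3.58.1 (R 4.3.3), control spots at weight 0. A mean per group was fitted to all 12 arrays, leaving 6 residual degrees of freedom, and 2-sided eBayes tests were adjusted by Benjamini-Hochberg across the 32981 probes well above background on both arrays of at least 1 group. The fit was tested on simulated data. Lower limits compare the E14.5 mean with the lowest signal well above background, or the probe's own where higher. They use eyelid-channel values that include the offset of 50, after loess and Aquantile scaling.

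Named members were the 6 deepest fallers, the 4 of lowest progress and, as none was called, the 2 of smallest p for the mean of stages, the fall and the later step. The gene lists and marker genes planned could not be used, because 0 probes carried a gene name. Alternatives were processed signals, Feature Extraction's log ratio, median centring, the eyelid channel alone, the authors' table, other filters, array weights, a replicate block, a slide block and leaving out each array. Feature Extraction's log ratio and the authors' table gave nearly the same genotype differences, so they do not count as separate checks. Leaving out arrays from the rule, and the named falls in other values, were added after seeing the data. The number of arrays limits precision.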

Additional observations from a re-analysis of the deposited data

How the results depend on the processing

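The count of members called between genotypes was 0 in 57 of 58 planned fits that kept every array. The exception was 1 member at E14.5 with processed signals followed by loess, Z00050906-1, whose difference was 1.12 there (limma adjusted p = 0.0199) and 0.00 in the loess ratios; the cause was not tested. Leaving out 1 array gave 0 to 15 members for the mean of 3 stages, 0 to 50 at E15.5, 0 to 1 at E16.5, 0 to 1 for the fall, 0 to 11 for the later step and 0 throughout at E14.5; the highest of the larger ranges came without wild-type E15.5 replicate 2, when 726, 2257 and 900 of all 32981 probes were called for the mean of stages, E15.5 and the later step. With the replicate block, 0 members were called in each comparison; the numbers did not pair the samples, since correlations of same-numbered deviations ran from -0.09 to 0.24 over 15 pairs of groups and 3 exceeded 0.1. A slide block could not be fitted for the fall or the later step. None of 128 alternatives for the 6 members named for a small p reversed. These members were picked for a small p in the same arrays, so a reversal was unlikely from the start. The rule gave 158 probes from loess ratios and 331 with progress under 0.5, 816 without the background criterion, 656 from wild-type arrays alone (452 of them members) and 583 from Tabby arrays alone (411), and from 513 to 687 with 1 array left out. Signal near background limits the size of the fall for dim members.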
